A study of Mus musculus with 18 samples.

Results

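Transcript levels of the arcuate nucleus were compared between mice that lack estrogen receptor α (ERKO) and wild-type mice (WT), each given estradiol. Total RNA was sequenced. This main contrast is a genotype difference under estradiol and not in itself an effect of estradiol. ERKO E2 and WT E2 had 3 libraries each, out of 18 libraries in the series. Of 23235 gene symbols in the tables, the 14772 with a mean of at least 0.5 FPKM over the 18 libraries were compared, without small RNA genes. All animals were females labelled C57/BL that had been ovariectomized, so that the ovary supplied no estradiol of its own. The E2 groups received estradiol benzoate, with 250 ng injected 5 days after surgery and 1500 ng a day later, and the oil groups received oil on both days. Tissue was microdissected 24 h after the last dose, and food was withheld for the final 1 h. The other groups used here are ERKO oil and WT oil, with the same surgery and timing, and KIKO E2, from the ERα KIKO genotype given estradiol. Each of these also had 3 libraries. The labels do not say how the ERKO allele was built, nor whether a library came from 1 animal or a pool, so p-values measure the spread between libraries, which may be technical. FPKM counts fragments per kilobase of a transcript, relative to all mapped fragments of a library, and n = 3 libraries for every mean ± SD.

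ERα, the product of Esr1, is a nuclear receptor that on binding estradiol regulates transcription, either at estrogen response elements in DNA or through other factors and signalling routes. The arcuate nucleus of the hypothalamus holds neurons that make kisspeptin, neurokinin B and dynorphin (KNDy neurons), which drive release of gonadotropin-releasing hormone and take part in estrogen negative feedback. It also holds the AgRP/NPY and POMC/CART neurons that govern feeding, dopamine neurons that restrain prolactin, and neurons that make growth hormone-releasing hormone.

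The library ERKO E2 3 stood apart. Its correlation with each of the other 17 libraries over the tested genes was r = 0.919 to 0.954, against 0.963 to 0.995 among those 17 and 0.987 between ERKO E2 1 and ERKO E2 2. In 1177 genes it lay more than 2-fold above the higher, and in 1683 genes more than 2-fold below the lower, of the other ERKO E2 libraries, while 514 genes differed more than 2-fold between those. Its FPKM summed to 628541, against 418191 to 492135 in the other 17. The confidence bounds in the tables implied the lowest relative depth for this library, 0.728, with 0.778 to 1.503 in the others. Summed markers of the vasopressin and oxytocin nuclei reached 20590 FPKM in it, against 5062 and 5477 in ERKO E2 1 and 2 and 4069 to 5630 in WT E2. Ependymal markers summed to 358.1 FPKM, against 113.5 in each of the other ERKO E2 libraries and 130.5 to 133.1 in WT E2. The part that these features have in the results was not tested. Each gene named below for ERKO E2 against WT E2 is given with the library and, where its call differs, without it. Other contrasts are given with all libraries unless said otherwise.

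Esr1, on chromosome 10, read 3.45, 5.24 and 5.88 FPKM in WT E2 1 to 3 and 1.91, 2.34 and 0.212 FPKM in ERKO E2 1 to 3. The groups did not overlap, but the log2 difference of −1.34 ± 0.32 did not pass the test (limma, adjusted p = 0.0569). Without ERKO E2 3 it passed at −0.88 (adjusted p = 0.0373). Esr1 transcript was thus detected in every ERKO E2 library, at a mean of 1.49 ± 1.13 FPKM against 4.86 ± 1.26 in WT E2. FPKM of a whole gene cannot show whether a deleted exon is missing, so these values check the label only in part. Under oil, Esr1 read 2.09 ± 0.417 FPKM in ERKO and 8.05 ± 3.39 in WT, a log2 difference of −1.49 (adjusted p = 0.0366).

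With all libraries, 192 genes (1.3% of 14772) differed between ERKO E2 and WT E2 at an adjusted p under 0.05. Of these, 40 (0.271%) were higher and 152 (1.03%) lower in ERKO, so that 79.2% of the calls were lower. In all 192 the 3 libraries of each group did not overlap, which was so for 11% of the tested genes, 4.7% with ERKO higher and 6.29% with ERKO lower. The calls were mostly moderate in size, with a median absolute log2 difference of 0.82, and 3 genes were higher and 57 lower by at least 1 on the log2 scale. Without ERKO E2 3, 1286 genes (8.71%) passed, 564 higher (3.82%) and 722 lower (4.89%), which put the share of lower calls at 56.1%. All 192 genes were again called with the same sign, and 1094 genes passed only then. Leaving out WT E2 1, 2 or 3 gave 116, 95 and 113 calls. With only the 6 compared libraries in the fit, 13 genes passed, all lower in ERKO, and 35 of the 45 called genes taken by the naming rule or added to it lost their call, the exceptions being Rln3, Aqp5, Fam151a, Greb1, Mad2l1, Col24a1, Lrrc38, Tnxb, Socs2 and Myc.

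The 14593 tested genes with a known length were sorted by transcript length. They included 1274 of the genes called without ERKO E2 3. In the shortest of 5 equal groups (2919 genes, median length 1342 bases) 25 passed as higher and 324 as lower without that library. In the longest group (2919 genes, median length 6803 bases) 310 passed as higher and 38 as lower. The median log2 difference rose from −0.19 in the shortest to 0.16 in the longest group without the library. With all libraries it ran from 0.05 to −0.05, and under oil from −0.19 to 0.21. When a smooth trend with length was removed from each library, 323 genes passed, 175 of the 192 among them, with 66.3% of calls lower. With that correction and without ERKO E2 3, 729 genes passed, 173 of the 192 among them. The 192 genes are therefore described first, and genes called only without the library are given with these length values in view.

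**Figure D1:**
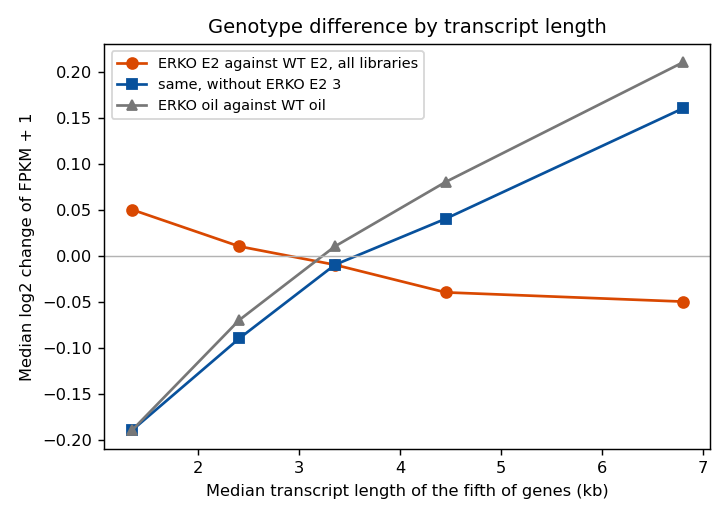
Median log2 difference of FPKM + 1 (vertical axis) in 5 equal groups of the tested genes by transcript length in kb (horizontal axis), for ERKO E2 against WT E2 with all libraries (circles), without ERKO E2 3 (squares) and for ERKO oil against WT oil (triangles). The line falls from 0.05 to −0.05 with all libraries and rises from −0.19 to 0.16 without ERKO E2 3.

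The largest falls were in genes that were nearly silent in ERKO E2 and expressed in WT E2. Rln3, on chromosome 8, encodes the neuropeptide relaxin-3. It read 11.4, 16.4 and 9.47 FPKM in WT E2 and 0.404, 0.683 and 0 FPKM in ERKO E2, a log2 difference of −3.30 ± 0.25 (adjusted p = 1.81e-06). Every WT E2 library was far above every ERKO E2 library, and Rln3 was listed at 0 in all 3 WT oil libraries. Aqp5, a water channel gene, read 5.78, 14.6 and 8.33 FPKM in WT E2 and 0.319, 0.135 and 0.177 in ERKO E2 (log2 difference −3.04 ± 0.23, adjusted p = 1.81e-06). Its WT E2 values ranged widely, but the lowest of them was far above the highest ERKO value. Fam151a read 3.56, 6.91 and 4.37 FPKM in WT E2 and no more than 4.02e-07 FPKM in any ERKO E2 library (−2.53 ± 0.17, adjusted p = 5.58e-07). In a bulk dissection, fewer cells of a type and less RNA per cell cannot be told apart, which holds for all values here. Rxfp2, which encodes a receptor of the relaxin family and is outside the naming rule, was also lower in ERKO E2, 0.317 ± 0.190 against 1.60 ± 0.281 FPKM (−0.99, adjusted p = 0.0117). That call was lost without WT E2 1 (−0.91, adjusted p = 0.0673).

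The 250 bases before the RefSeq start of 4 leading genes, Rln3, Mad2l1, Col24a1 and Kiss1, are printed because the series asks how ERα acts through estrogen response elements. The consensus palindromic estrogen response element, with the arms GGTCA and TGACC 3 bases apart, and its single arms were searched on both strands, in windows from 250 bases before to 50 after the start (RefSeq, GRCm38.p6). Capitals mark the single arms, and all bases are given 5′ to 3′ on the strand of the gene. Rln3 lies on the minus strand (chr8:84044980-84045229), and Mad2l1 (chr6:66534971-66535220), Col24a1 (chr3:145292222-145292471) and Kiss1 (chr1:133326962-133327211) on the plus strand.
Rln3: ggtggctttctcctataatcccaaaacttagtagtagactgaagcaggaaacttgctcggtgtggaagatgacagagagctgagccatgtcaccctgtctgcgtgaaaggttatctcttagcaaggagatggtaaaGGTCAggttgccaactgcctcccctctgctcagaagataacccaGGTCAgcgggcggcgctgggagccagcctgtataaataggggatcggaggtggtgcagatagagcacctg
Mad2l1: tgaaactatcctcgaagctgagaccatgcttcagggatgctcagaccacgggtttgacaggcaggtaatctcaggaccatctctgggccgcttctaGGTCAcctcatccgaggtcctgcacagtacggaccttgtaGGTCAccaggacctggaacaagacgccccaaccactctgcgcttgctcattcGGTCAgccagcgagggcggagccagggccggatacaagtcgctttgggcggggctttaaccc
Col24a1: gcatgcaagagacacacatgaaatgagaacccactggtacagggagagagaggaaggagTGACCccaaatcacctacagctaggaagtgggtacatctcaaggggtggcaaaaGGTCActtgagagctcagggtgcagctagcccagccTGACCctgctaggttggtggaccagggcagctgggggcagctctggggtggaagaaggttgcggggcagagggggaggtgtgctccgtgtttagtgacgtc
Kiss1: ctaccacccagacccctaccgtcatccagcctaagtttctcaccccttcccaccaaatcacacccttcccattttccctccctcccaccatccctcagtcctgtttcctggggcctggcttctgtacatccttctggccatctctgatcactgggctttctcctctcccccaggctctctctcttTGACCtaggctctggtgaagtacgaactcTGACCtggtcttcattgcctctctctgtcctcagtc
Rln3 and Kiss1 held 2 arms each, and Mad2l1 and Col24a1 3 each, and these 4 were picked among the leading genes for holding several arms. The 2 windows of Greb1 held 1 and 2 arms, those of Igfbp2 0 and 1, and Aqp5 and Nr4a2 1 each. Windows with 3 or more arms were 4 of 137 for the lower genes (2.92%) and 0 of 36 for the higher genes, against 1.6% for tested genes and 2.35% for all. The full palindrome was in 23 of 32851 windows of all genes and in 1 of the 13337 windows of the 10398 tested genes with an entry. It was in none of the 137 windows of 107 genes lower in ERKO E2, and in none of the 36 windows of 27 higher genes. A single arm was in 31.4% of the windows of the lower genes and in 33.3% of those of the higher genes, against 37.9% for tested genes and 40.5% for all. Pgr and Tacr3 held none. A match is a run of letters and not a bound site, and no match says only that these letters are not in this window.

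Greb1, Pgr and Nr4a2 were among the genes on the list of estrogen-responsive genes that were lower in ERKO E2. Greb1, a classical estrogen-induced gene on chromosome 12, read 5.24, 4.80 and 6.29 FPKM in WT E2 and 0.280, 0.244 and 0.146 in ERKO E2. The ratio of means was 24.4, and the log2 difference −2.39 ± 0.13 (adjusted p = 9.47e-08). Every ERKO E2 value lay below the mean of WT oil, 0.475 ± 0.222 FPKM. Pgr, the progesterone receptor gene, read 13.9, 15.5 and 18.1 FPKM in WT E2 and 4.39, 4.90 and 2.39 in ERKO E2 (−1.81 ± 0.19, adjusted p = 4.23e-05). WT oil held 4.44 ± 1.09 FPKM of Pgr, within the range of ERKO E2. Nr4a2, an orphan nuclear receptor known for its part in dopamine neurons, read 7.43, 8.92 and 8.39 FPKM in WT E2 and 1.29, 1.75 and 0.451 in ERKO E2 (−2.14 ± 0.22, adjusted p = 4.23e-05).

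In all, 11 of the 19 tested genes in a list of estrogen-responsive genes were lower in ERKO E2 and 0 higher. Lower calls made up 1.03% and higher calls 0.271% of all tested genes. The median log2 difference of the list was −0.99, against −0.01 over all tested genes. The list was drawn up with results of these data known, so its direction is no independent evidence. With Greb1, Pgr, Rln3, Nr4a2 and the Gal and Socs2 described below, the called members included Myc, Oxtr, Cckar, Stc2 and Rara, which are named outside the rule because they complete the count. Myc, the cell growth transcription factor, read 11.7, 9.78 and 9.36 FPKM in WT E2 and 2.93, 2.64 and 2.96 in ERKO E2 (−1.55 ± 0.16, adjusted p = 4.23e-05). Oxtr, the oxytocin receptor gene, averaged 7.49 ± 1.80 and 2.06 ± 0.483 FPKM (−1.46), and Cckar, a cholecystokinin receptor gene, 8.92 ± 0.284 and 4.05 ± 0.869 FPKM (−0.99). Stc2 (stanniocalcin 2) differed by −1.12 and Rara (a retinoic acid receptor) by −0.66. The calls of Stc2 and Rara were each lost without WT E2 1, 2 or 3, with adjusted p up to 0.145 and 0.0829, and that of Stc2 also without ERKO E2 1. Without ERKO E2 3 the list held 13 lower genes, where 4.89% of all tested genes were lower. With the length correction as well it held 11.

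**Figure D2:**
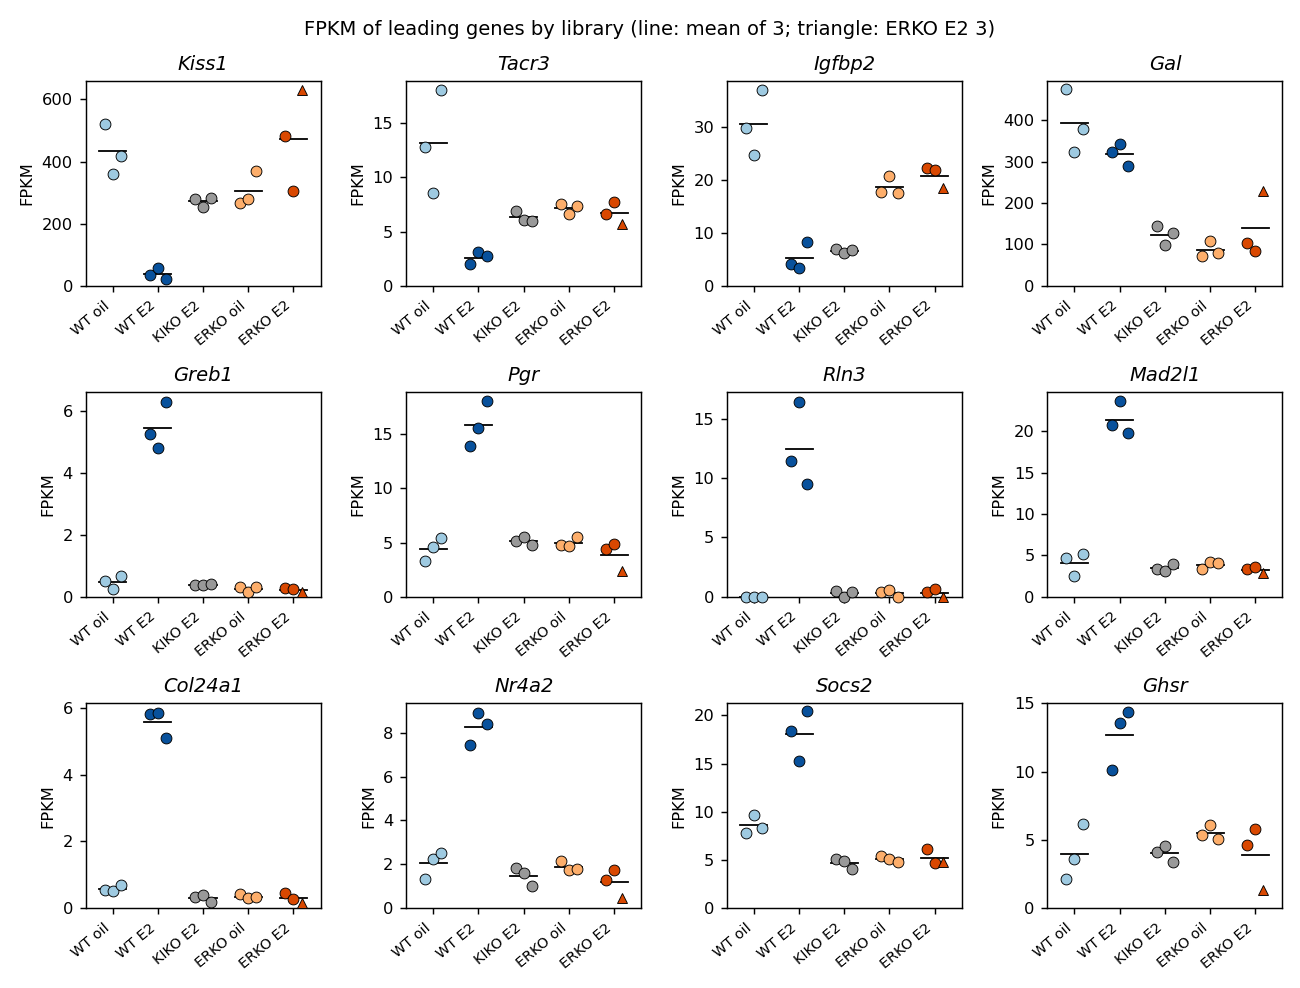
FPKM of 12 leading genes (vertical axes, linear) in each library of 5 groups, with a line at the mean of 3 libraries and a triangle for ERKO E2 3. Kiss1 lies between 306 and 629 FPKM in ERKO E2 and between 20.9 and 58.3 in WT E2, and Greb1 is above 4 FPKM only in WT E2.

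Other genes with large differences encoded a spindle checkpoint protein, matrix proteins and signalling receptors. Mad2l1, a mitotic spindle checkpoint gene, read 20.8, 23.7 and 19.8 FPKM in WT E2 and 3.32, 3.66 and 2.92 in ERKO E2 (−2.38 ± 0.18, adjusted p = 2.27e-06). Both groups were tight, and the means differed 6.49-fold. Col24a1, a fibrillar collagen gene, read 5.82, 5.85 and 5.10 FPKM in WT E2 and 0.447, 0.278 and 0.137 in ERKO E2 (−2.36 ± 0.14, adjusted p = 9.47e-08). Col2a1, a fibrillar collagen best known from cartilage, read 22.0, 24.7 and 20.01 FPKM in WT E2 and 6.19, 3.16 and 2.36 in ERKO E2 (−2.32 ± 0.21, adjusted p = 8.88e-06). Under oil, too, ERKO was lower than WT for Col2a1 (−1.11, adjusted p = 0.0274). Whether the genotype difference of Col2a1 differed between treatments did not pass the test (difference −1.21, adjusted p = 0.119).

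Among 30 extracellular matrix genes, 4 were lower in ERKO E2 and 0 higher, with a median log2 difference of −0.04. The matching shares of all tested genes were 1.03% and 0.271%. Col24a1 was one. Tnxb, which encodes tenascin-X, read 7.58, 9.27 and 7.96 FPKM in WT E2 and 2.07, 0.939 and 1.16 in ERKO E2 (−1.98 ± 0.17, adjusted p = 6.43e-06). Smoc2, a secreted calcium-binding matrix protein gene, read 4.23, 9.33 and 9.65 FPKM and 1.34, 0.965 and 0.573 FPKM (−2.10 ± 0.29, adjusted p = 0.00101). The lowest WT E2 library for Smoc2 was still above all ERKO E2 libraries. Lamb1, a laminin chain gene named outside the rule to complete the count, averaged 7.79 ± 1.03 and 2.08 ± 0.887 FPKM (−1.55, adjusted p = 0.01997), a call lost without WT E2 2, WT E2 3 or ERKO E2 2 (adjusted p = 0.0502 to 0.0961). Summed markers of meninges and fibroblasts ran from 20.46 to 158.3 FPKM in WT E2 and from 22.93 to 89.89 FPKM in ERKO E2. They overlapped between the groups, and their part in the matrix genes was not tested.

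Lrrc38, an auxiliary subunit gene of large-conductance potassium channels, read 3.51, 5.07 and 3.58 FPKM in WT E2 and 0.202, 0.114 and 0.261 in ERKO E2 (−2.07 ± 0.14, adjusted p = 7.68e-07). Gfra1, which encodes a receptor for glial cell line-derived neurotrophic factor, read 20.5, 33.7 and 32.6 FPKM in WT E2 and 6.67, 11.5 and 2.60 in ERKO E2. It differed by −2.06 ± 0.31 with ERKO E2 3 and by −1.58 without it (adjusted p = 0.00193 and 0.00027). Its signalling partner Ret, noticed among the calls and outside the rule, read 6.54 ± 1.78 FPKM in WT E2 and 3.04 ± 1.21 in ERKO E2 (−0.92, adjusted p = 0.0382). The Ret call was lost without WT E2 2, WT E2 3, ERKO E2 1 or ERKO E2 2 (adjusted p = 0.0795 to 0.198).

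In the KNDy system, the kisspeptin gene and the neurokinin B receptor gene were higher in ERKO E2. Kiss1, on chromosome 1, read 34.8, 58.3 and 20.9 FPKM in WT E2 and 481, 306 and 629 FPKM in ERKO E2. The lowest ERKO E2 library stood far above the highest WT E2 library, and the means, 472 ± 161 and 38.0 ± 18.9 FPKM, differed 12.4-fold. The log2 difference was 3.66 ± 0.32 (adjusted p = 6.79e-06), and 3.42 without ERKO E2 3 (adjusted p = 9.71e-05). In a fit of only the 5 libraries left, the adjusted p was 0.0771. Under oil, Kiss1 averaged 433 ± 81.2 FPKM in WT and 305 ± 56.5 FPKM in ERKO. Tacr3, the receptor gene for neurokinin B, read 2.00, 3.10 and 2.70 FPKM in WT E2 and 6.66, 7.73 and 5.69 in ERKO E2 (1.10 ± 0.21, adjusted p = 0.0122). The groups did not overlap, but the call was lost without WT E2 1 (0.97, adjusted p = 0.0718).

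The other KNDy peptide genes did not pass under E2. Tac2, which encodes neurokinin B, read 468, 628 and 532 FPKM in WT E2 and 861, 524 and 896 in ERKO E2 (0.46 ± 0.24, adjusted p = 0.498), with ERKO E2 2 inside the WT E2 range. Pdyn, the dynorphin gene, read 66.9, 97.2 and 69.3 FPKM and 79.7, 89.1 and 40.8 FPKM (−0.21 ± 0.24, adjusted p = 0.856), and its sign turned to 0.13 without ERKO E2 3. Under oil, Pdyn was called lower in ERKO (−1.14, adjusted p = 0.0361). Tac2 was lower there by −0.91 (adjusted p = 0.0604, and 0.0105 without ERKO E2 3 in the fit). The difference between treatments for Pdyn was 0.93 with all libraries (adjusted p = 0.291) and 1.27 without ERKO E2 3 (adjusted p = 0.0208). Nhlh2, a transcription factor of hypothalamic neurons, was lower, at 5.97, 5.49 and 6.36 FPKM in WT E2 and 2.97, 3.60 and 3.12 in ERKO E2 (−0.72 ± 0.13, adjusted p = 0.0111). Its call was lost without WT E2 3 (−0.67, adjusted p = 0.0580). Over 19 tested KNDy and reproductive peptide genes, 2 were higher and 1 lower, with a median of 0.14. For all tested genes the shares were 0.271% higher and 1.03% lower. Oprk1, the dynorphin receptor gene, was higher only without ERKO E2 3 (0.61, adjusted p = 0.0438, against 0.47 and 0.302 with it).

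The remaining genes that were higher in ERKO E2 differed less than Kiss1. Igfbp2, which encodes a binding protein for insulin-like growth factors, read 4.01, 3.35 and 8.23 FPKM in WT E2 and 22.2, 21.8 and 18.4 in ERKO E2 (1.89 ± 0.28, adjusted p = 0.00199). It was the single gene called of 13 tested in the insulin-like growth factor list, where 1.3% of all tested genes were called. Sox3, a transcription factor of the SoxB1 group on the X chromosome, read 11.99, 10.8 and 8.95 FPKM in WT E2 and 19.6, 25.6 and 17.2 in ERKO E2 (0.90 ± 0.15, adjusted p = 0.0049). Brs3, an orphan receptor gene linked to energy balance, read 1.60, 1.54 and 1.82 FPKM and 3.21, 3.81 and 5.37 FPKM (0.93 ± 0.16, adjusted p = 0.00645). In these 3 genes every ERKO E2 library was above every WT E2 library, and each call was kept whichever of the 6 libraries was left out.

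A further 7 of the largest rises passed by a smaller margin. Nxph3, a neurexin ligand gene, differed by 0.98 (4.87 ± 0.269 against 2.08 ± 1.01 FPKM, adjusted p = 0.0348), and Bdnf, the brain-derived neurotrophic factor gene, by 0.83 (3.17 ± 0.354 against 1.36 ± 0.381 FPKM, adjusted p = 0.0481). Lrrtm1, a synaptic adhesion gene, differed by 0.89, Hspa1a, an inducible heat shock chaperone gene, by 0.78, Tmc4 and Vill by 0.77 each, and Dok3, an adaptor gene, by 0.71. The calls of all 7 were lost when single libraries were left out. ERKO E2 1 was such a library for each of the 7, WT E2 1 for each, WT E2 2 for Bdnf, Hspa1a, Tmc4, Vill and Dok3, WT E2 3 for all but Tmc4, and ERKO E2 2 for Lrrtm1. The adjusted p then reached 0.146 for Nxph3, 0.213 for Bdnf, 0.144 for Lrrtm1, 0.140 for Hspa1a, 0.206 for Tmc4, 0.155 for Vill and 0.187 for Dok3.

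Of 18 dopamine and prolactin genes, 4 were lower in ERKO E2 and 0 higher, with a median log2 difference of −0.33. Of all tested genes, 1.03% were called lower and 0.271% higher. The 4 were Nr4a2 and 3 genes of prolactin and growth hormone signalling. Socs2, an inhibitor of this signalling that is itself induced by it, read 18.4, 15.2 and 20.4 FPKM in WT E2 and 6.07, 4.71 and 4.75 in ERKO E2 (−1.62 ± 0.17, adjusted p = 4.73e-05). Stat5a, a transcription factor that carries the signal to the nucleus, read 6.99, 10.3 and 9.54 FPKM and 3.51, 3.40 and 1.88 FPKM (−1.35 ± 0.19, adjusted p = 0.00101). Both were apart in all libraries. Cish, another inhibitor, read 9.04, 10.1 and 9.58 FPKM and 4.49, 3.83 and 6.36 FPKM (−0.86 ± 0.18, adjusted p = 0.0308). The Cish call was lost without any WT E2 library, ERKO E2 1 or ERKO E2 2 (adjusted p = 0.0741 to 0.134). Prlr, the prolactin receptor gene, averaged 9.23 ± 0.409 and 7.29 ± 1.94 FPKM and did not pass (−0.33, adjusted p = 0.537). Th, which encodes the rate-limiting enzyme of dopamine synthesis, was called under E2 only without ERKO E2 3 (−0.63, adjusted p = 0.0306, against −0.39 and 0.479 with it). Under oil, Th was called lower in ERKO with all libraries (−0.92, adjusted p = 0.0366).

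Among 26 feeding peptides and energy balance receptors, 1 was higher (Bdnf) and 3 were lower, with a median of −0.14. Shares over all tested genes were 0.271% higher and 1.03% lower. Gal, the galanin gene, read 323, 344 and 290 FPKM in WT E2 and 103, 85.0 and 230 FPKM in ERKO E2 (−1.33 ± 0.28, adjusted p = 0.0303). ERKO E2 3 was the highest ERKO library, and without it the difference was −1.76 (adjusted p = 5.94e-05). The call was lost without any WT E2 library, ERKO E2 1 or ERKO E2 2 (adjusted p = 0.0709 to 0.133). Ghsr, the ghrelin receptor gene, read 10.1, 13.6 and 14.3 FPKM in WT E2 and 4.58, 5.76 and 1.33 in ERKO E2 (−1.61 ± 0.33, adjusted p = 0.0252), a call lost without WT E2 2 or WT E2 3 (adjusted p = 0.117 and 0.106). Foxo1, a transcription factor restrained by insulin signalling, differed by −0.54 (adjusted p = 0.0348), a call lost without any WT E2 library or ERKO E2 1 (adjusted p = 0.0555 to 0.156).

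The peptides that define the main arcuate feeding neurons did not pass with all libraries. Agrp, the agouti-related peptide gene, read 337, 266 and 255 FPKM in WT E2 and 125, 118 and 256 in ERKO E2 (−0.86 ± 0.33, adjusted p = 0.295). ERKO E2 3 lay inside the WT E2 range, and without it Agrp passed at −1.22 (adjusted p = 0.0315). Npy averaged 1014 ± 162 and 762 ± 246 FPKM (−0.44, adjusted p = 0.616) and Pomc 824 ± 109 and 1122 ± 490 FPKM (0.36, adjusted p = 0.669). Cartpt, which encodes the CART peptides, read 330, 273 and 219 FPKM in WT E2 and 507, 366 and 1009 in ERKO E2 (1.08 ± 0.29, adjusted p = 0.102), so its groups were apart but the test was not passed. Mchr1, a receptor gene for melanin-concentrating hormone, was called lower only without ERKO E2 3 (−0.90, adjusted p = 0.0028).

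Of 22 releasing hormones, other peptides and granins, 1 was lower, where 1.03% of all tested genes were. This was Nts, which encodes neurotensin. It read 23.5, 20.1 and 19.0 FPKM in WT E2 and 8.04, 8.13 and 15.2 in ERKO E2 (−0.98 ± 0.22, adjusted p = 0.0406), and its call was lost without any WT E2 library, ERKO E2 1 or ERKO E2 2 (adjusted p = 0.0888 to 0.158). Without ERKO E2 3 the list held 1 higher and 5 lower genes, where 3.82% of all tested genes passed as higher and 4.89% as lower. Ghrh, the growth hormone-releasing hormone gene, was then lower by −1.12 (adjusted p = 0.000605). Its values were 188, 174 and 164 FPKM in WT E2 and 88.1, 72.3 and 193 in ERKO E2, and ERKO E2 3 was the highest of the 6. Nmu, the neuromedin U gene, was then lower by −1.73, Sstr2, a somatostatin receptor gene, by −0.76, and Vgf, a neuropeptide precursor gene, higher by 0.74. With all libraries Vgf differed by 0.70 (adjusted p = 0.0505), and Sst, the somatostatin gene, by 0.17 (adjusted p = 0.866).

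Of 24 immediate early genes, which neurons switch on with activity, Npas4 was higher and Ier2 lower. Among all tested genes, 0.271% passed as higher and 1.03% as lower. Npas4 read 3.92, 3.21 and 3.29 FPKM in WT E2 and 7.16, 5.38 and 5.67 in ERKO E2 (0.65, adjusted p = 0.0185), and its call was lost without WT E2 2, WT E2 3 or ERKO E2 1 (adjusted p = 0.0756 to 0.103). Ier2 averaged 7.39 ± 0.456 and 4.03 ± 0.475 FPKM (−0.74, adjusted p = 0.0225), a call lost without any WT E2 library, ERKO E2 1 or ERKO E2 2 (adjusted p = 0.0518 to 0.116). Fos averaged 16.3 ± 1.02 and 14.4 ± 4.62 FPKM and did not pass (−0.20, adjusted p = 0.742), though it passed at −0.44 without ERKO E2 3 (adjusted p = 0.0386). Under oil, Fos was called higher in ERKO, at 25.9 ± 4.82 against 15.1 ± 1.84 FPKM in WT (0.73, adjusted p = 0.0434). Its difference between treatments was −0.94 with all libraries (adjusted p = 0.124) and −1.17 without ERKO E2 3 (adjusted p = 0.00251). Among GABA and glutamate genes, Grik1, a kainate receptor subunit gene, was lower (−0.62, adjusted p = 0.0409). Its call was lost without any WT E2 library or ERKO E2 1 (adjusted p = 0.0854 to 0.157). Hspa1a was the single call among 15 heat shock chaperones, and Pgr among 19 steroid receptors and coregulators, where 1.3% of all tested genes passed. The latter list held 3 lower calls without ERKO E2 3, Esr1, Pgr and Fkbp4 (−0.34, adjusted p = 0.0354), and its median went from −0.10 to 0.25. Over all tested genes, 4.89% passed as lower in that fit.

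**Figure D3:**
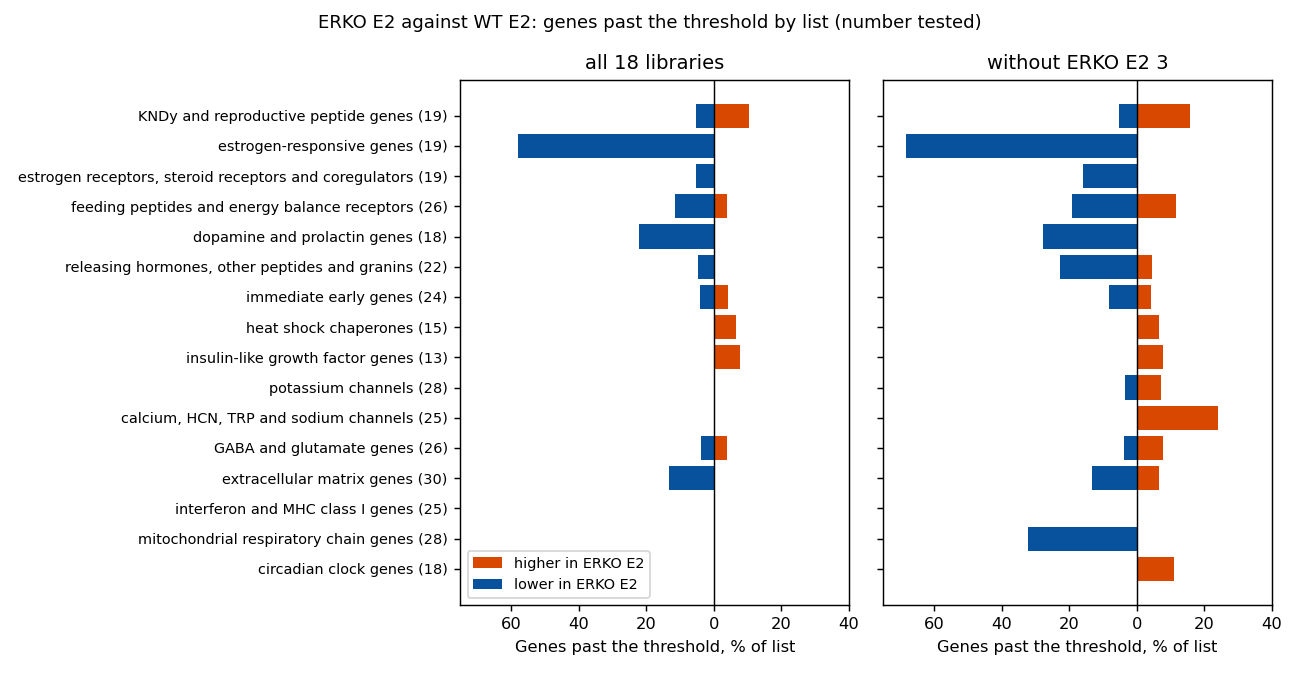
Share of each gene list past the threshold (horizontal axis, % of tested members, lower in ERKO E2 to the left and higher to the right) with all 18 libraries and without ERKO E2 3. The estrogen-responsive list has 11 of 19 lower with all libraries and 13 without ERKO E2 3, and mitochondrial genes go from 0 to 9 of 28 lower.

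Some groups of genes had no call with all libraries and several without ERKO E2 3. Counts at an unadjusted p under 0.05 are given here and below without the share of all tested genes. They are therefore not read as many or few. Among 28 mitochondrial respiratory chain genes, 0 passed in limma with all libraries (median 0.09, with 1 at an unadjusted p under 0.05) and 9 were lower without the library (median −0.40). Over all tested genes, 4.89% passed as lower in that fit. With the length correction as well, 2 were lower (median −0.15). Uqcr11, a subunit gene of complex III, read 231, 186 and 171 FPKM in WT E2 and 115, 107 and 381 in ERKO E2 (−0.22 with and −0.81 without ERKO E2 3), and Ndufa1, of complex I, 135, 127 and 121 FPKM and 83.3, 86.7 and 205 FPKM (−0.16 and −0.58). In both genes ERKO E2 1 and 2 were below, and ERKO E2 3 above, all WT E2 libraries. Cyc1 differed by −0.37 and Sdhb by −0.42 without the library.

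Among 25 calcium, HCN, TRP and sodium channel genes, 0 passed with all libraries (median −0.04, with 5 at an unadjusted p under 0.05) and 6 were higher without ERKO E2 3 (median 0.28). Over all tested genes, 3.82% passed as higher in that fit. With the length correction as well, 0 were higher and 1 was lower (median 0.12). Cacna1d, an L-type calcium channel gene, read 8.77, 8.93 and 8.88 FPKM in WT E2 and 12.7, 12.8 and 5.73 in ERKO E2 (0.14 with and 0.48 without ERKO E2 3). Here ERKO E2 3 was the lowest of the 6 libraries and the other ERKO E2 libraries the highest. Scn1a and Scn8a, sodium channel genes, differed by 0.50 and 0.48 and Trpc4 by 0.62 without the library. Of 28 potassium channel genes, 0 passed with all libraries (6 at an unadjusted p under 0.05), and without the library Kcna2 and Abcc8 were higher (0.55 and 0.49) and Kcnk2 lower (−0.51), where 8.71% of all tested genes passed. With the length correction as well, 1 was higher and 2 were lower. Of 18 circadian clock genes, 0 passed with all libraries (0 at an unadjusted p under 0.05), and Per2 and Per3 were higher without it (0.62 and 0.43). With the length correction as well, 1 clock gene was higher and 0 lower. Col11a1, a collagen gene, was higher by 1.05 without it. Of 25 interferon and MHC class I genes, 0 passed in either fit, with medians of −0.16 and −0.21 and 0 at an unadjusted p under 0.05 with all libraries. Among the largest rises called only without ERKO E2 3 were Bcl6, a transcriptional repressor gene (0.89), Thpo (0.83), Nhedc2 (0.83), Cep250 (0.82) and Ap1g2 (0.71), and among the largest falls Cited4 (−0.94) and Phospho1 (−0.84). The part of transcript length in these calls was not tested gene by gene.

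Markers of cell types and of neighbouring tissue were read in the same fits. In 15 marker lists with 125 tested genes, 0 passed with all libraries, and 12 had an unadjusted p under 0.05. The share of all tested genes under that cut is not given, so such counts are not read as many or few. Without ERKO E2 3, Nefh (neurons), Aldoc (astrocytes) and Cldn5 (endothelium) were lower, by −0.39, −0.39 and −0.98. Summed neuron markers ran from 1530 to 1768 FPKM in WT E2 and from 1621 to 2086 in ERKO E2, with overlap. Endothelial markers ran from 73.61 to 81.12 FPKM in WT E2 and from 47.21 to 68.96 in ERKO E2, without overlap. All 8 endothelial genes had a negative log2 difference with all libraries (median −0.52), and 0 had a positive one without ERKO E2 3 (median −0.29). Markers of the ventromedial nucleus, which adjoins the arcuate nucleus, summed to 43.35, 45.38 and 29.16 FPKM in WT E2 1 to 3 and to 63.07, 46.31 and 63.86 in ERKO E2 1 to 3, also without overlap. All 8 of its genes had a positive log2 difference with and without ERKO E2 3, 3 of them at an unadjusted p under 0.05 with all libraries. All 7 tested ependymal genes had a positive log2 difference with all libraries, and 9 of 10 tanycyte genes a negative one. Without ERKO E2 3, 3 of the 7 and 2 of the 10 were positive. The part of these lists in the results was not tested. Markers of the pars tuberalis and pituitary summed to 30.63, 25.68 and 386.9 FPKM in WT E2 1 to 3 and to 231.9, 55.18 and 41.45 in ERKO E2 1 to 3, with Prl and Gh listed at 0 in all 6. These pituitary sums overlapped between the groups. The arcuate peptide genes Pomc, Npy, Agrp, Tac2 and Sst were read at over 100 FPKM in all 6 libraries, in keeping with the labelled tissue.

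The same genotype contrast under oil used 6 other libraries. There 213 genes (1.44%) passed, 112 higher (0.758%) and 101 lower (0.684%) in ERKO. Leaving ERKO E2 3 out of the fit raised this to 3319 genes, and leaving out WT oil 1, WT oil 2 or ERKO oil 1, 2 or 3 lowered it to 42, 12, 6, 8 and 1. Of the 40 genes higher in ERKO E2, 22 had the same sign under oil, 3 were called with it and 1, Nxph3, was called with the opposite sign (−0.91, adjusted p = 0.0472). Of the 152 lower genes, 115 had the same sign under oil, where 51.5% of all tested genes did, and 11 were called. The groups were apart under oil in the same direction in 13 of the 40 and 60 of the 152, against 20.8% and 18.4% of all genes. Genes called under both treatments in 1 direction made up 7.3% of the E2 calls and 6.6% of the oil calls. The median log2 difference was 0.66 under E2 and 0.06 under oil for the 40, and −0.88 and −0.17 for the 152. Since the genes were chosen on the E2 contrast, the smaller median under oil is read only with the test of the difference.

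That test, ERKO against WT under E2 minus the same under oil, passed in 41 genes (0.278%), 14 higher (0.0948%) and 27 lower (0.183%). Without ERKO E2 3 it passed in 63 (0.426%). It passed in 104 genes without ERKO E2 2, in 74 without WT oil 3, and in 25, 27 and 27 without ERKO oil 1, 2 and 3. Of the 40 genes higher in ERKO E2 it passed in 6, and of the 152 lower in 26, but this test shares the E2 libraries with the calls. Kiss1 had the largest difference among the named genes, 4.16 (adjusted p = 0.000241), from 3.66 under E2 and −0.50 under oil. Igfbp2 differed by 2.56, Tacr3 by 1.83 and Sox3 by 1.31, and each was lower in ERKO than in WT under oil without passing with all libraries. With ERKO E2 3 out of the fit the oil contrast passed for Tacr3 (−0.73, adjusted p = 0.0160) and Sox3 (−0.41, adjusted p = 0.0388), and not for Igfbp2 (−0.67, adjusted p = 0.103). Rln3 differed by −3.67, Greb1 by −2.18 and Pgr by −1.97. Vgf, called under oil as lower in ERKO (−1.16, adjusted p = 0.0124), had a difference of 1.86 (adjusted p = 0.00106). Gal was lower under both treatments (−1.33 under E2 and −2.17 under oil, adjusted p = 0.00815), and its difference of 0.84 did not pass (adjusted p = 0.393). Cish (−0.86 and −0.98) was also called in both contrasts, with a difference of 0.11 that did not pass (adjusted p = 0.847).

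**Figure D4:**
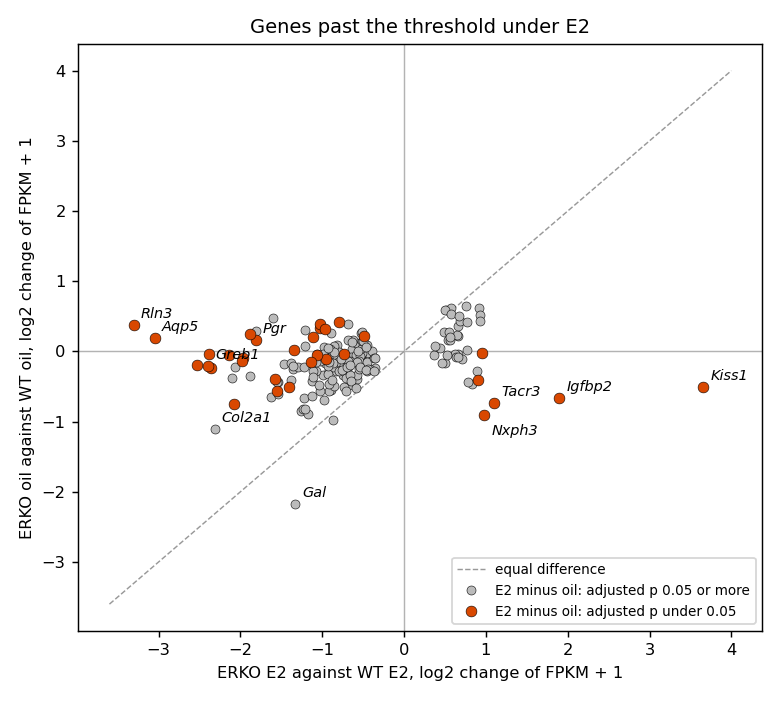
Log2 difference of FPKM + 1 between ERKO and WT under E2 (horizontal axis) and under oil (vertical axis) for the 192 genes called under E2, with orange points for genes whose difference between treatments passed the test. Kiss1 lies at 3.66 and −0.50, Rln3 at −3.30 and 0.37, and Gal, whose difference did not pass, at −1.33 and −2.17.

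KIKO E2 was set beside ERKO E2, with the caution that both were compared with the same WT E2 libraries. KIKO E2 against WT E2 called 140 genes (0.948%) with all libraries, and the count without ERKO E2 3 in the fit is not given. Single calls depended on that library. Ghrh (−0.77) had an adjusted p of 0.282 with it and 0.00494 without it, and Col11a1 (0.97) of 0.114 and 0.000796. For the 40 genes higher in ERKO E2 the median log2 difference was 0.66 in ERKO and 0.53 in KIKO, and for the 152 lower genes −0.88 and −0.72. Kiss1 averaged 272 ± 16.1 FPKM in KIKO E2 and 472 ± 161 in ERKO E2, Greb1 0.383 ± 0.0206 and 0.223 ± 0.0696, and Pgr 5.12 ± 0.357 and 3.89 ± 1.33. Igfbp2 averaged 6.59 ± 0.344 FPKM in KIKO E2, near the 5.19 ± 2.65 of WT E2, and 20.8 ± 2.10 in ERKO E2. Tested directly with all libraries, ERKO E2 and KIKO E2 differed in 2 genes (0.0135%), both lower in ERKO and both outside the naming rule. Gldn, which encodes gliomedin, averaged 1.16 FPKM in ERKO E2, 8.34 in KIKO E2 and 0.711 in WT E2. The other, 6330403A02Rik, averaged 3.35 FPKM in ERKO E2, 10.8 in KIKO E2 and 16.1 in WT E2, and was among the genes lower in ERKO E2 than in WT E2 (−1.97, adjusted p = 2.27e-06).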

How the data were processed

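Gene expression was read from the 18 gene tables that the authors deposited, in FPKM (fragments per kilobase of a transcript, relative to all mapped fragments). TopHat2 2.0, Cuffdiff and the build mm10 are named per the submitters' processing notes. The annotation is not given in the sources used here. Of 20587 symbols on the same chromosome in RefSeq GRCm38.p6, 4.81% started within 1000 bases of the listed start, so chromosomes are given without the tables' positions. Entries sharing a symbol were summed, and 734 genes for small RNAs (microRNAs, snoRNAs and snRNAs) were left out. Fragment counts are not in the tables. The confidence bounds in FPKM gave a relative depth per library, which no test used.

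Values of log2(FPKM + 1) were modelled with limma 3.58.1 (R 4.3.3). The fit held 18 libraries, 6 group means and 12 residual degrees of freedom, and variances were moderated with a mean trend and robustly. Two-sided p-values were adjusted by the Benjamini-Hochberg method across all 14772 genes, and an adjusted p under 0.05 was called. Log2 changes and their SE are from this fit, and the added 1 FPKM makes them smaller than the ratio of means for genes with low FPKM. Group spreads are SD over 3 libraries. Every fit was repeated with ERKO E2 3 left out, with 11 residual degrees of freedom.

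The genes, lists and alternatives were chosen with earlier results of these data known. Named were Esr1, a panel of arcuate genes, the largest changes in each direction among genes past the threshold whose groups did not overlap, without clone names, and at most 4 called genes from every list. Other genes are said to be outside this rule. A few genes meeting this rule are not reported here but remain in the counts. Transcript length was that of the longest GENCODE M21 transcript of each gene. The procedure was tested on simulated data. Alternatives covered the pseudocount, the filter on low values, scaling, variance model, library weights, libraries fitted, a replicate block, each library of the groups compared left out and, chosen after seeing the data, a length correction and a fit of 5 libraries. Other steps ran in Python 3.11.15 (pandas 2.3.3, numpy 2.4.6, matplotlib 3.10.9).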

Additional observations from a re-analysis of the deposited data

Results flagged for a closer look

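The genotype difference between ERKO and WT was tested for whether it differed between E2 and oil. With all libraries it did so in 16 of the named genes (limma, adjusted p under 0.05). Each value is the log2 difference under E2 minus that under oil. The difference was more negative under E2 in 10 genes: Rln3 (−3.67), Aqp5 (−3.23), Mad2l1 (−2.35), Fam151a (−2.33), Greb1 (−2.18), Col24a1 (−2.13), Nr4a2 (−2.08), Pgr (−1.97), Tnxb (−1.84) and Lrrc38 (−1.32). It was more positive under E2 in 6 genes: Kiss1 (4.16), Igfbp2 (2.56), Nxph3 (1.89), Vgf (1.86), Tacr3 (1.83) and Sox3 (1.31). Without ERKO E2 3 the 16 passed again. Gfra1 (−1.36), Nts (−1.33), Fos (−1.17), Myc (−1.13) and Pdyn (1.27) passed only then.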

How the results depend on the processing

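Of the 45 genes called in ERKO E2 against WT E2 that the naming rule took or that were added to it, 10 were called in every alternative that tested them. Among these 10, Fam151a and Lrrc38 were tested in 18 of the 19 alternatives. Of the 45, 22 were called whichever ERKO E2 or WT E2 library was left out, and 0 changed sign. Against 192 calls (40 higher, 152 lower), 75 genes passed with only WT and ERKO libraries in the fit (5 and 70), 13 with only the groups compared (0 and 13), 1302 with array weights (581 and 721), 323 with the length correction (109 higher), 729 with that correction and ERKO E2 3 left out (306 and 423) and 592 in the fit of 5 libraries (216 and 376). Leaving out single ERKO E2 or WT E2 libraries gave 95 to 1286 calls, 13 to 564 higher and 79 to 722 lower. Deviations from the group means had r = −0.271, 0.018 and −0.313 between same-numbered WT E2 and ERKO E2 libraries. Between unlike-numbered libraries r ran from −0.272 to 0.418. The deviations rest on means of 3 libraries, with ERKO E2 3 among them, so they cannot decide whether the numbers pair libraries. With a replicate block 140 genes passed, 19 higher, and under oil 64. The 213 calls under oil became 430 with quantile normalization, 1 with only WT and ERKO libraries, 2932 with array weights, 1662 with only the groups compared, 649 with the length correction, and 2391 with that and ERKO E2 3 left out. They became 1 to 287 with single ERKO oil or WT oil libraries left out, and 3319 with only ERKO E2 3 left out. The 41 differences between treatments became 26, 18, 73, 73 and 96 under quantile normalization, only WT and ERKO libraries, array weights, the length correction, and that without ERKO E2 3. They became 25 to 104 with single WT or ERKO libraries left out. The cause of these changes was not tested. Signs turned only in genes not called. With array weights these were Pdyn (0.15), Pomc (−0.01) and Sst (−0.15), with quantile normalization Sst (−0.03), in the fit of 5 libraries Pdyn (0.13) and Sst (−0.08), and with the length correction and without ERKO E2 3 Pdyn (0.21). With single libraries left out, values ran from −0.42 to 0.13 for Pdyn, −0.08 to 0.38 for Sst, −0.04 to 0.48 for Cacna1d, −0.06 to 0.50 for Scn1a, −0.58 to 0.07 for Ndufa1, −0.81 to 0.10 for Uqcr11, −0.42 to 0.14 for Sdhb, −0.09 to 0.62 for Per2, −0.02 to 0.43 for Per3 and −0.39 to 0.01 for Aldoc. The smallest two-sided permutation p for 3 against 3 is 0.1, so no single-gene exact test could pass.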
